A study of Mus musculus with 6 samples.

Results

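The genes described here are 37 genes of DNA replication and the start of S phase, taken by name, with earlier results of these data known. They cover origin licensing factors, the replicative helicase, polymerases, and the sliding clamp and its loader. They also cover enzymes of nucleotide supply, chromatin assembly, and the cyclin E and E2f1 genes. All 37 were found among the 42256 genes of the count table, and all 37 passed the filter on low counts that left 15840 genes for testing. Their levels were measured by RNA sequencing in PDGFRa+ cells sorted from digested scar tissue of mouse hearts 7 days after injury. Cardiac fibroblasts carry PDGFRa, a growth factor receptor, on their surface. In 4 libraries the mice had the genotype Htr2bfl/flPostnMCM/+, called Htr2b_cKO here. Both alleles of the serotonin receptor gene Htr2b carried loxP sites, and 1 allele of the periostin gene Postn carried a Cre that tamoxifen activates, so that the deletion is restricted to cells that switch Postn on. In the 2 control libraries the mice were Htr2bfl/fl, without the Cre. Both groups were of a mixed 129S2/C57Bl6 strain, were injured at 1 time, and ate tamoxifen chow from 1 week before the experiment to its end. No control carried the Cre, so the Cre, the altered Postn allele and loss of Htr2b cannot be told apart. The age of the mice was not used here.

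DNA replication is prepared when the origin recognition complex, Cdc6 and Cdt1 load the MCM helicase onto origins. In S phase Cdc45 and the GINS complex join the helicase, and primase and polymerases copy the strands. The clamp loader places the PCNA clamp, and flap removal and ligation join the fragments of the lagging strand. Transcription of many of these genes is switched on at the end of G1 by E2F factors, which are released from retinoblastoma proteins as G1 cyclin kinases become active. In the infarcted heart, fibroblasts proliferate in the first days after injury and then settle into a matrix-producing state, so transcripts of these genes serve as a common readout of cells entering S phase.

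The promoters of these genes were searched for letters that E2F factors are known to bind. Windows of 300 bases (250 before to 50 after a transcription start, RefSeq, GRCm38.p6) were matched by symbol for 31 of the 37 genes. Ccne2, Gins1, Gins2, Mcm4, Pole and Rfc2 had no entry. E2F-type letters were searched as TTTCCCGC, TTTCGCGC, TTTGCCGC and TTTGGCGC on both strands, where overlapping matches were counted separately. They were present for 11 of the 31 genes (35.5%), namely Orc1, Cdc6, Cdt1, Mcm3, Mcm5, Mcm6, Mcm7, Pola1, Rfc3, Lig1 and Uhrf1, and for 2.6% of all 27025 genes of the promoter table. The 4 stretches that follow were chosen because they hold such letters upstream of a start and touch no annotated exon. They are written 5′ to 3′ on the strand of the gene, with the E2F-type letters in capitals. The Mcm5 stretch is chr8:75109329-75109508 on the plus strand, Mcm6 is chr1:128359706-128359885 on the minus strand, Pola1 is chrX:93632156-93632335 on the minus strand, and each ends at the base before the start. The Uhrf1 stretch is chr17:56304063-56304242 on the plus strand and runs from 250 to 71 bases before a start that lies inside the annotated span of the gene.
Mcm5: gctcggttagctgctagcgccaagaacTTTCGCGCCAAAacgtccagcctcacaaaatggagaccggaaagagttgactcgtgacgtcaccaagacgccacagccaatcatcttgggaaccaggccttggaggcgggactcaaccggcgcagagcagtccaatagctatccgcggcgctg
Mcm6: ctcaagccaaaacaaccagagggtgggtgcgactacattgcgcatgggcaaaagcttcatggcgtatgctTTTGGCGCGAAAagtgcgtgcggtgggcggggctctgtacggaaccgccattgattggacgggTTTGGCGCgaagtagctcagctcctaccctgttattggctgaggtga
Pola1: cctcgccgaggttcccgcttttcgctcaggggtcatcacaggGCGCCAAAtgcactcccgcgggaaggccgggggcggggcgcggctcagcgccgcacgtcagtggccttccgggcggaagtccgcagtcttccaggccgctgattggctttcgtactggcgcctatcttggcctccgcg
Uhrf1: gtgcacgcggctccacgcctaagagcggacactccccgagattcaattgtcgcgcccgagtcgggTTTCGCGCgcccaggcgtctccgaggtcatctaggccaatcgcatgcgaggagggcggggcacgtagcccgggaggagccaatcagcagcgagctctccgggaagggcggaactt
In Mcm5 a match on the gene strand, first base 153 bases upstream, and a match on the other strand, first base 149 bases upstream, overlap. Mcm6 has another overlapping pair, at 110 and 106 bases upstream, and a further match 47 bases upstream. Pola1 has 1 match on the other strand, 138 bases upstream, and Uhrf1 has 1 on the gene strand, 185 bases upstream. The CCAAT box, which binds NF-Y, was searched as CCAAT on both strands and was found for 20 of the 31 genes (64.5%, against 41.1% of all genes). The CHR-type letters typical of mitotic genes, TTTGAA and TTCGAA on both strands, were found for 5 of the 31 (16.1%, against 21.7% of all genes). Among 30 mitotic genes, 26 of which had a window, the shares were 3.85% for E2F-type, 73.1% for CCAAT and 76.9% for CHR-type letters. These shares describe letters in windows and not binding. The 11 genes with E2F-type letters had a median log2 fold change between genotypes of -0.08, with 3 above 0, and the 20 genes without them a median of -0.04, with 9 above 0.

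**Figure D1:**
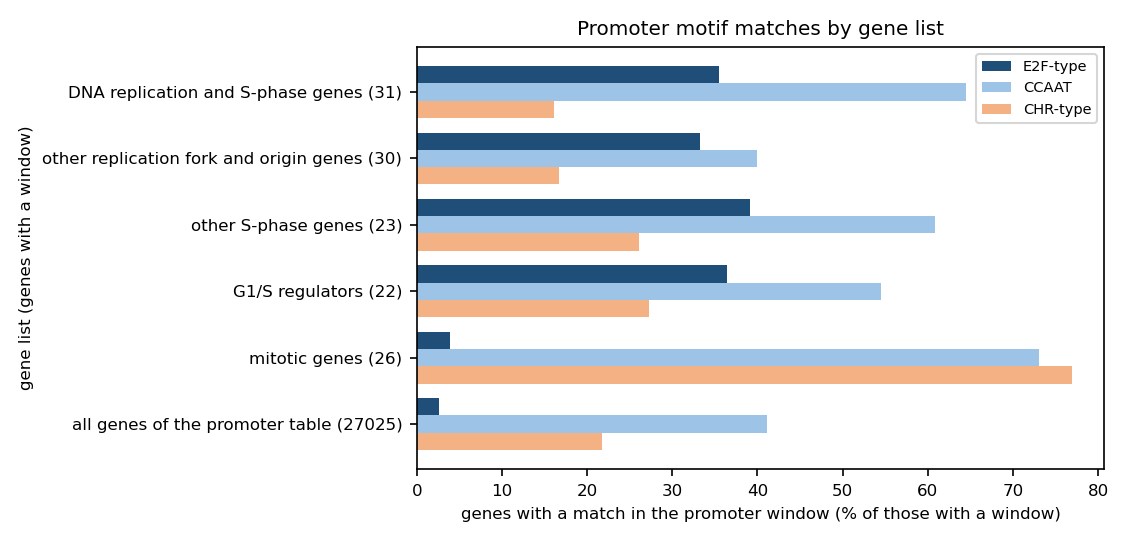
Share of genes with a motif match in the RefSeq promoter window, in percent of the genes of each list that had a window (their number in parentheses), for E2F-type, CCAAT and CHR-type letters. E2F-type letters are found for 35.5% of 31 replication genes and 3.85% of 26 mitotic genes, and CHR-type letters for 16.1% and 76.9%.

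Libraries held from 28533427 to 37392496 estimated counts, and the least abundant replication gene had at least 47 counts in every library. Values are CPM (counts scaled to a common library size) on TMM-scaled library sizes, given for control 1 and 2 and then for Htr2b_cKO 1 to 4, and fold changes are Htr2b_cKO minus control on the log2 scale. Htr2b had 13 and 7 counts in the control libraries and 0, 3, 29 and 4 in the others. The library labelled Htr2b_cKO 3 thus lay above both controls, opposite to the direction its label would give. These counts are low, and the deletion is restricted to cells that switch Postn on, so they do not settle whether the label is right. Postn, of which Htr2b_cKO mice carried 1 altered allele, had 2309 and 1586 CPM in control libraries. It had 1350, 1526, 2312 and 982 CPM in Htr2b_cKO libraries, and the groups overlapped (log2 fold change -0.34, SE 0.33). Pdgfra, the gene of the sorting marker, stood at 985 ± 357 CPM in control (SD, n = 2) and 900 ± 204 CPM in Htr2b_cKO libraries (SD, n = 4). All 8 fibroblast markers were tested, and their summed level was 91665 to 115544 CPM in control and 76399 to 129539 CPM in Htr2b_cKO libraries. The lowest sum was in the library labelled Htr2b_cKO 3, but the markers were divided there. In that library 5 of the 8 had their lowest level, while 3 (Dcn, Postn and Tcf21) had their highest. Other cell types left a trace that varied: the 10 macrophage markers summed to 784 to 2475 CPM in control and 351 to 4047 CPM in Htr2b_cKO libraries, and the 8 endothelial markers to 64.2 to 297 and 59.4 to 109 CPM. Control 1 had the higher sum of the pair of controls for macrophage, endothelial, mural, neutrophil, lymphocyte, cardiomyocyte and erythroid markers.

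For no replication gene did the difference between genotypes pass the test against the spread between libraries. Of the 37 genes, 0 passed edgeR's quasi-likelihood test at a Benjamini-Hochberg adjusted p under 0.05, against 0.0189% of all genes tested (3 of 15840), and the smallest adjusted p was 0.478. DESeq2 also called 0 of the 37, against 0.647% of all genes it tested, with a smallest adjusted p of 0.595. At an unadjusted edgeR p under 0.05, 2 genes were higher in Htr2b_cKO libraries (Rfc1 and Ccne2, where 6.6% of all genes were) and 0 were lower (2.99% of all genes). These counts moved with single Htr2b_cKO libraries: with Htr2b_cKO 1, 2, 3 or 4 left out, 1, 0, 2 and 0 genes were higher, and 0 were lower. With either control left out a single control remained, so only estimates are given for those fits. The estimates of Rfc1 and Ccne2 were 0.24 and 0.47 without control 1, and 0.63 and 0.95 without control 2. Estimates below 0 moved with the controls too. Those of Fen1 and Gins2 were 0.01 and -0.11 without control 1, and both were -0.50 without control 2. The log2 fold changes ran from -0.41 for Ccne1 to 0.70 for Ccne2, with a median of -0.06 against -0.00 over all genes, and 15 were above 0 and 22 below (40.5% above, against 49.99% of all genes). Each of the 4 Htr2b_cKO libraries exceeded both controls for 2 genes, Pola1 and Ccne2, where 10.6% of all genes did, and below both for 1, Rfc3, where 8.98% did. In bulk RNA of sorted cells, a change in the number of cycling cells and a change in transcript per cell cannot be told apart.

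The precision of these estimates is set by 2 control libraries. The SE of the log2 fold change was 0.187 in the median gene and ran from 0.128 to 0.392. For 34 of the 37 genes the 95% confidence interval lay within a 2-fold change in either direction, and for 35 it included 0. The size of the log2 ratio between the 2 controls, 0.27 in the median gene, was larger than the fold change between genotypes for 26 of the 37. The median size of the fold change was 0.15. A ratio of 2 single libraries varies more than a difference between means of 2 and 4 libraries, so this count is no test of the genotype difference. With each library left out in turn, the estimate changed sign for 20 of the 37 genes and moved by over 1.5 times without a change of sign for 16, and only that of Pola1 stayed within 1.5 times. No test of a single gene by permutation could pass the threshold, because the smallest p that 2 libraries against 4 allow is 0.0667.

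**Figure D2:**
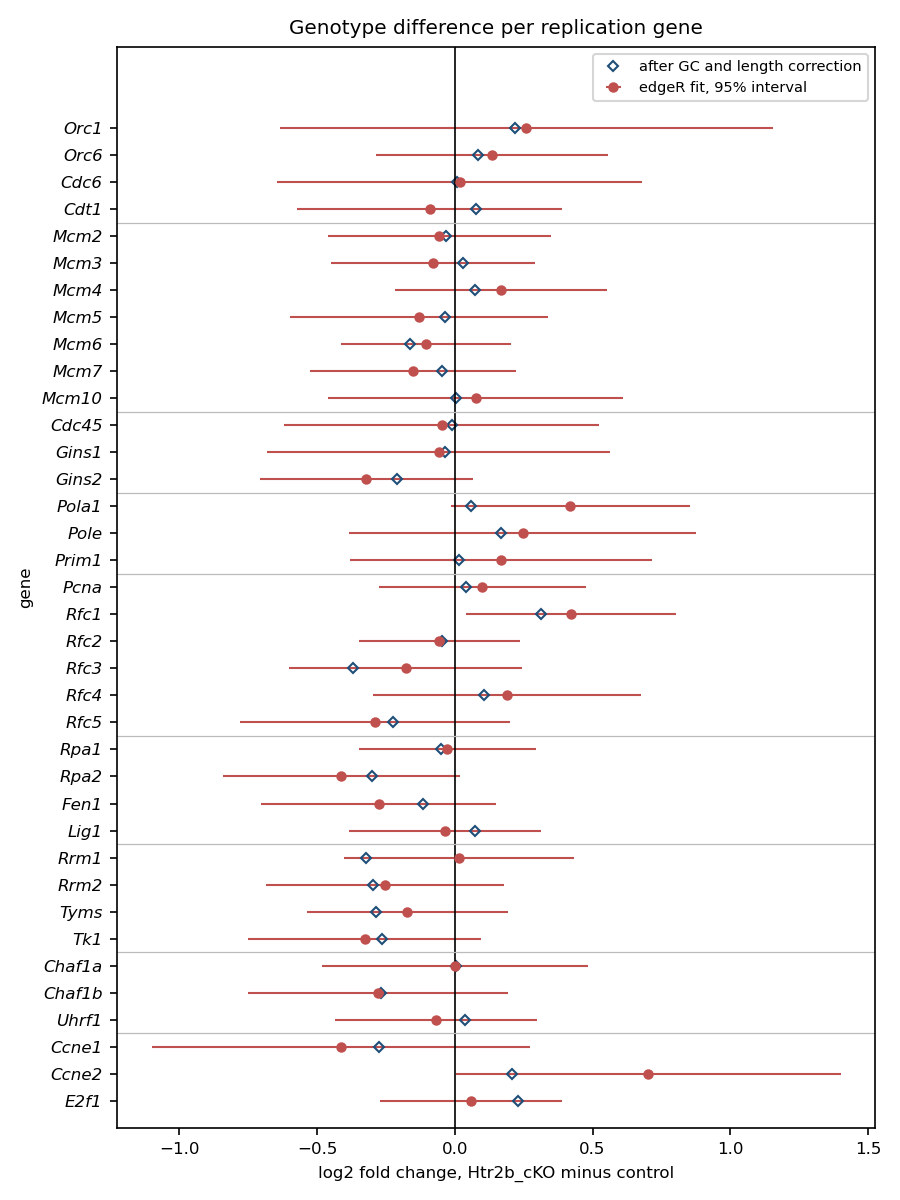
Log2 fold change, Htr2b_cKO minus control, of each replication gene, grouped by role. Filled circles with bars are edgeR estimates with 95% confidence intervals, and open diamonds are estimates after correction for GC content and exon length. The intervals of Rfc1 and Ccne2 lie above 0 and the other 35 include it.

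Origin licensing genes had 3 of 4 estimates above 0. Orc1, the largest subunit of the origin recognition complex, was the least abundant gene of the 37, with 1.72 and 1.77 CPM in control and 2.60, 2.56, 1.42 and 1.81 CPM in Htr2b_cKO libraries. The first 2 Htr2b_cKO libraries were above both controls and the library labelled Htr2b_cKO 3 was below both, and the log2 fold change was 0.26 (SE 0.39, adjusted p = 0.860). Orc6, another subunit of that complex, had 15.1 and 15.5 CPM in control and 16.5, 20.6, 15.005 and 15.2 CPM in Htr2b_cKO libraries, a log2 fold change of 0.13 (SE 0.18). Its groups overlapped, with Htr2b_cKO 2 alone standing clear of the rest. Cdc6, which joins the origin complex to load the helicase, had a log2 fold change of 0.02, and Cdt1, its partner in loading, one of -0.09. All 4 licensing genes were lowest in the library labelled Htr2b_cKO 3, and 3 were highest in Htr2b_cKO 2.

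The MCM genes encode the replicative helicase, in which Mcm2 to Mcm7 form a ring, and Mcm10, which helps to start unwinding. Their log2 fold changes were small, from -0.15 to 0.17, and 2 of 7 were above 0. Mcm6 had 68.0 and 74.5 CPM in control and 57.8, 71.4, 68.3 and 67.4 CPM in Htr2b_cKO libraries, a log2 fold change of -0.11 (SE 0.14, 95% confidence interval from -0.41 to 0.20). Mcm7 had 61.4 and 45.7 CPM in control and 53.2, 51.8, 44.7 and 43.6 CPM in Htr2b_cKO libraries, with control 1 above the rest (log2 fold change -0.15, SE 0.16). Mcm4 had 38.6 and 37.6 CPM in control and 39.1, 45.8, 35.5 and 50.6 CPM in Htr2b_cKO libraries, for a log2 fold change of 0.17 (SE 0.17). The groups overlapped for all 7 genes. Mcm4 was the only one of the 37 genes that was highest in Htr2b_cKO 4. Mcm2, Mcm3, Mcm5 and Mcm10 had log2 fold changes of -0.06, -0.08, -0.13 and 0.08.

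The subunits of the ring are present in equal number in the complex, and their transcripts were not. On the scale of CPM per kb of transcript, Mcm6 had the highest level of the 6 ring genes in each of the 6 libraries, from 19.8 to 25.6. Mcm4 had the lowest level in 5 libraries, and Mcm2 in Htr2b_cKO 4. The ratio of the highest to the lowest level was 2.17 and 2.45 in control libraries and 1.82, 1.93, 2.37 and 2.21 in Htr2b_cKO libraries, so the groups overlapped. These ratios rest on the length of 1 annotated transcript per gene.

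**Figure D3:**
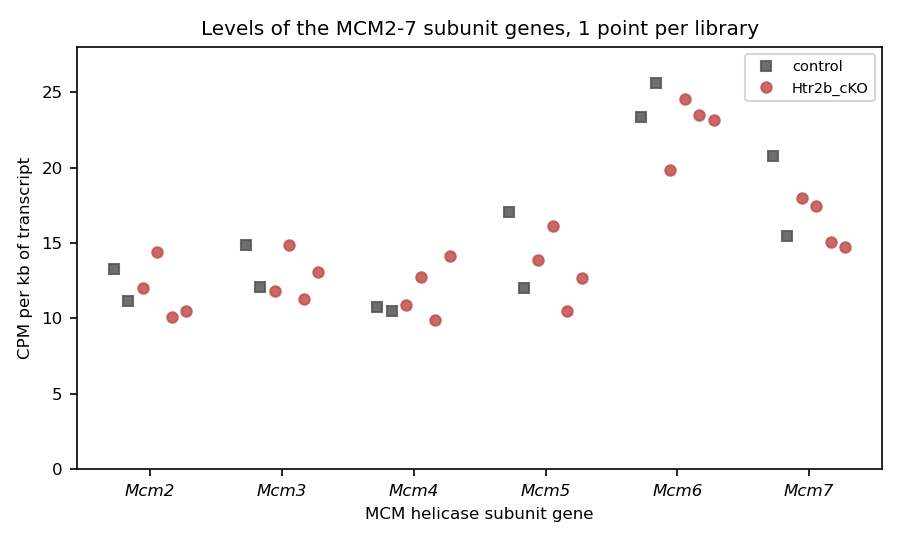
Levels of the 6 ring subunit genes in CPM per kb of transcript, 1 point per library, with squares for control and circles for Htr2b_cKO. Mcm6 lies highest in every library, between 19.8 and 25.6, and control and Htr2b_cKO points overlap for each gene.

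The factors that turn the loaded ring into an active helicase had 3 of 3 estimates below 0. Gins2, a subunit of the GINS complex, had 26.4 and 20.0 CPM in control and 17.8, 20.8, 17.1 and 18.6 CPM in Htr2b_cKO libraries. Control 1 stood above the other 5 libraries, and Htr2b_cKO 2 lay above control 2. The log2 fold change of Gins2 (ENSMUSG00000031821, chromosome 8 from 120578633 to 120589304) was -0.32 (SE 0.17, adjusted p = 0.593), and without control 1 it was smaller in size, at -0.11. Gins1, of the same complex, had 4.74 and 4.92 CPM in control and 5.34, 5.03, 4.80 and 3.39 CPM in Htr2b_cKO libraries, with only Htr2b_cKO 4 apart (log2 fold change -0.06, SE 0.27). Cdc45, the third part of the active helicase, had a log2 fold change of -0.05 (SE 0.25).

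Polymerase and primase genes had 3 of 3 estimates above 0. Pola1, the catalytic subunit of the polymerase that extends primers, had 13.5 and 15.7 CPM in control and 19.5, 23.1, 15.9 and 19.6 CPM in Htr2b_cKO libraries. Each of the 4 Htr2b_cKO libraries exceeded both controls, the library labelled Htr2b_cKO 3 by the least. The log2 fold change of Pola1 (ENSMUSG00000006678, chromosome X from 93304767 to 93632155) was 0.42 (SE 0.19, 95% confidence interval from -0.01 to 0.85, unadjusted p = 0.0565, adjusted p = 0.541), and it was 0.06 after correction for GC content and exon length. Pole, the catalytic subunit of the leading strand polymerase, had 8.79 and 8.21 CPM in control and 11.4, 12.3, 6.37 and 10.3 CPM in Htr2b_cKO libraries, so that the library labelled Htr2b_cKO 3 was below both controls and the other three above (log2 fold change 0.25, SE 0.28). Prim1, the primase subunit that makes the RNA primer, had a log2 fold change of 0.17 (SE 0.24).

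The clamp and clamp loader genes were divided, with 3 of 6 estimates above 0. Pcna, the sliding clamp that tethers polymerases to DNA, had 118 and 94.2 CPM in control and 97.8, 133, 117 and 109 CPM in Htr2b_cKO libraries. The groups overlapped, and the log2 fold change of 0.10 (SE 0.17) had a 95% confidence interval from -0.28 to 0.48. Rfc1, the large subunit of the loader, had 36.4 and 47.2 CPM in control and 61.1, 59.2, 47.0 and 56.4 CPM in Htr2b_cKO libraries. The library labelled Htr2b_cKO 3 was just under control 2 and the other three lay above both controls. The log2 fold change of Rfc1 (ENSMUSG00000029191, chromosome 5 from 65261850 to 65335670) was 0.42 (SE 0.17, 95% confidence interval from 0.04 to 0.80, unadjusted p = 0.0339, adjusted p = 0.478), or 0.31 after the GC and length correction. It was 0.24 without control 1 and 0.63 without control 2.

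Of the 4 small subunits of the loader, 1 had an estimate above 0. Rfc5 had 26.5 and 17.4 CPM in control and 19.7, 20.9, 14.9 and 16.7 CPM in Htr2b_cKO libraries, with control 1 far above the rest. Its log2 fold change was -0.29 (SE 0.22, adjusted p = 0.695), and it was 0.05 without control 1. Rfc3 had 11.1 and 10.7 CPM in control and 9.34, 10.3, 10.4 and 8.44 CPM in Htr2b_cKO libraries. For Rfc3 every Htr2b_cKO value was below both controls, by little (log2 fold change -0.18, SE 0.19), and the estimate was -0.37 after the GC and length correction. Rfc2 and Rfc4 had log2 fold changes of -0.06 and 0.19.

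Genes of single-strand binding and lagging strand joining had 4 of 4 estimates below 0. Rpa2, the middle subunit of replication protein A, had 23.1 and 16.8 CPM in control and 15.7, 17.0, 14.1 and 13.3 CPM in Htr2b_cKO libraries. Control 1 was above the other 5 libraries, while Htr2b_cKO 2 was slightly above control 2. The log2 fold change of Rpa2 (ENSMUSG00000028884, chromosome 4 from 132768332 to 132778752) was -0.41 (SE 0.19, 95% confidence interval from -0.84 to 0.02, adjusted p = 0.545), and it was -0.16 without control 1. Rpa1, the large subunit of the same protein, had 72.4 and 60.3 CPM in control and 65.2, 72.5, 62.3 and 60.6 CPM in Htr2b_cKO libraries, a log2 fold change of -0.03 (SE 0.14). Fen1, the flap nuclease that trims lagging strand fragments, had 28.9 and 20.1 CPM in control and 20.2, 22.9, 20.3 and 17.7 CPM in Htr2b_cKO libraries. Apart from control 1 the libraries of Fen1 lay close together, and its log2 fold change of -0.28 (SE 0.19, adjusted p = 0.668) came to 0.01 without control 1. Lig1, the ligase that seals the fragments, had a log2 fold change of -0.03.

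Genes of nucleotide supply had 3 of 4 estimates below 0. Rrm1, the large subunit of ribonucleotide reductase, was the most abundant gene of the 37 by mean CPM, with 121 and 107 CPM in control and 133, 127, 87.0 and 115 CPM in Htr2b_cKO libraries. The library labelled Htr2b_cKO 3 was the lowest and Htr2b_cKO 1 the highest, and the log2 fold change was 0.01 (SE 0.18). Rrm2, the small subunit whose level follows S phase, had 27.9 and 20.6 CPM in control and 22.4, 21.4, 16.4 and 21.3 CPM in Htr2b_cKO libraries, for a log2 fold change of -0.25 (SE 0.19), which was -0.017 without control 1. Tk1, the thymidine kinase of the salvage pathway, had 35.5 and 24.1 CPM in control and 24.8, 24.6, 25.4 and 20.5 CPM in Htr2b_cKO libraries. Here control 1 alone stood apart from 5 libraries that differed little, and the log2 fold change was -0.33 (SE 0.19, adjusted p = 0.619), or -0.02 without control 1. Tyms, which makes thymidylate, had a log2 fold change of -0.17. After the GC and length correction all 4 were below 0, with Rrm1 at -0.32 and a median of -0.29, and 0 of the 4 passed an unadjusted p under 0.05 then.

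Chromatin assembly and maintenance genes had estimates near or below 0. Chaf1b, a subunit of the assembly factor CAF-1 that deposits histones behind the fork, had 14.0 and 11.7 CPM in control and 11.8, 11.4, 8.21 and 11.2 CPM in Htr2b_cKO libraries. The library labelled Htr2b_cKO 3 was the lowest by a wide margin, and the log2 fold change was -0.28 (SE 0.21). Chaf1a, the large subunit of CAF-1, had a log2 fold change of 0.00. Uhrf1, which recruits the maintenance DNA methyltransferase, had 38.1 and 35.5 CPM in control and 35.3, 41.9, 30.2 and 33.0 CPM in Htr2b_cKO libraries, with overlapping groups (log2 fold change -0.07, SE 0.16).

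The 3 genes of G1/S control held both ends of the range. Ccne1, one of the pair of E cyclins that drive entry into S phase, had 9.97 and 8.46 CPM in control and 7.77, 9.70, 4.74 and 5.58 CPM in Htr2b_cKO libraries. Its last 2 Htr2b_cKO libraries were well below the other 4, and its first 2 were at the level of the controls. The log2 fold change of Ccne1 (ENSMUSG00000002068, chromosome 7 from 38097984 to 38107534) was -0.41 (SE 0.30, adjusted p = 0.689). It was -0.26 without the library labelled Htr2b_cKO 3, -0.078 without Htr2b_cKO 3 and 4 together, and -0.20 on the authors' normalized signal. Ccne2, the other E cyclin, had 2.86 and 3.98 CPM in control and 4.20, 6.90, 5.77 and 5.08 CPM in Htr2b_cKO libraries. Each of the 4 Htr2b_cKO libraries exceeded both controls, Htr2b_cKO 1 by little. The log2 fold change of Ccne2 (ENSMUSG00000028212, chromosome 4 from 11191351 to 11204779) was 0.70 (SE 0.31, 95% confidence interval from 0.00 to 1.40, unadjusted p = 0.0489, adjusted p = 0.520). Ccne2 had the lowest GC content of the 37 genes, 36.3%, and its estimate was 0.21 after the GC and length correction and 0.47 without control 1. E2f1, the activating transcription factor, had the smallest SE of the 3, with 22.1 and 19.6 CPM in control and 23.4, 21.6, 20.7 and 21.4 CPM in Htr2b_cKO libraries, for a log2 fold change of 0.06 (SE 0.14, 95% confidence interval from -0.27 to 0.39).

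The estimates moved with base composition. The 18 genes of lower GC content (36.3% to 49.2%) had a median log2 fold change of 0.09 with 12 above 0, and the 19 genes of higher GC content (49.3% to 58.3%) a median of -0.09 with 3 above 0. After the correction the medians were 0.01 and -0.04, with 11 of 18 and 7 of 19 above 0. Over all 37 genes, 18 were then above 0, the median was -0.01, and 0 had an unadjusted p under 0.05 in either direction. Of all genes tested, 2.56% were higher at an unadjusted p under 0.05 after the correction.

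Levels of the replication genes differed between libraries of 1 genotype. Their summed level was 1181 and 1011 CPM in control and 1087, 1209, 968 and 1041 CPM in Htr2b_cKO libraries. Taking each gene's log2 CPM minus its mean over the 6 libraries, the median over the 37 genes was 0.15 in control 1 and -0.10 in control 2, and 0.03, 0.16, -0.18 and -0.06 in Htr2b_cKO libraries. The highest library of a gene was control 1 for 15 genes and Htr2b_cKO 2 for 14. The lowest was the library labelled Htr2b_cKO 3 for 19 genes, and Htr2b_cKO 2 was the lowest for 0. Control 1 lay above control 2 for 29 of the 37 genes, where 49.1% of all genes did, and for 32 of the 37 after the GC and length correction. The 2 controls are 1 pair of libraries, and the 29 genes are not independent of each other.

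**Figure D4:**
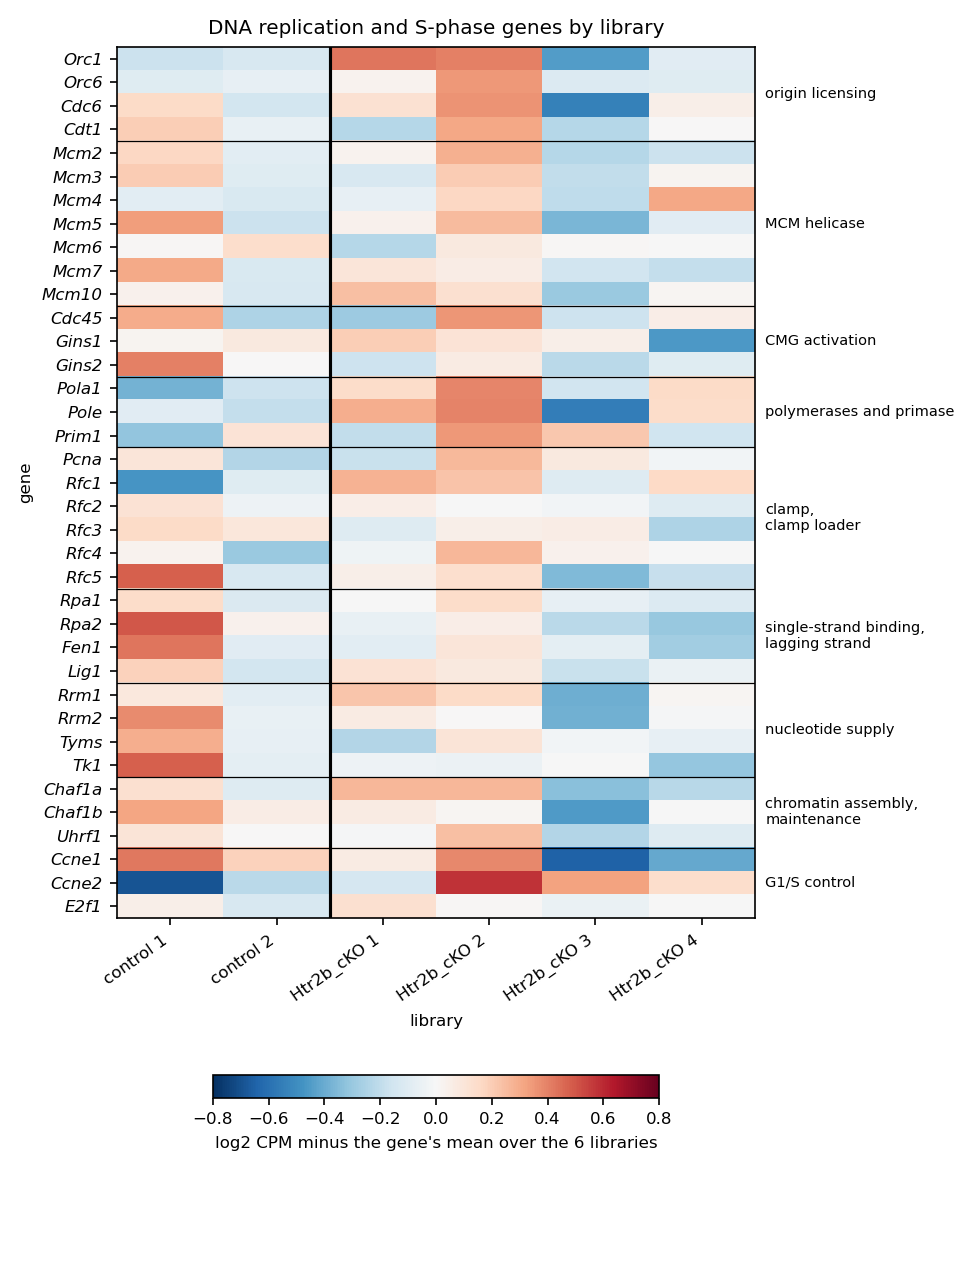
Log2 CPM of each replication gene minus its mean over the 6 libraries, genes in rows by role and libraries in columns, with a line between control and Htr2b_cKO. Control 1 and Htr2b_cKO 2 are mostly red (higher; medians 0.15 and 0.16) and the library labelled Htr2b_cKO 3 mostly blue (lower; median -0.18), so columns of 1 genotype differ from each other.

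Leaving out the libraries in question changed the balance of the estimates and no call. Without control 1, 26 of the 37 estimates were above 0 and their median was 0.08. Without control 2, 10 were above 0 and the median was -0.12. Without the library labelled Htr2b_cKO 3, 20 were above 0 and the median was 0.01. In each of these fits edgeR called 0 of the 37. The library labelled Htr2b_cKO 3 also had the highest macrophage sum and the lowest fibroblast sum, though 3 of the 8 fibroblast markers were highest there. Control 1 had the second highest macrophage sum, and Htr2b_cKO 2 had 2160 CPM of macrophage markers with high replication genes. The part of these markers in the levels of replication genes was not tested beyond a fit with a macrophage covariate. That covariate was the sum over the macrophage markers of log2 of CPM plus 1, and not the summed CPM. In this fit edgeR called 0 of the 37 and the median log2 fold change was -0.05.

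Other genes of the replication fork and its origins, 37 in number and all tested, gave 0 calls as well. Of these, 22 had an estimate above 0, and the median log2 fold change was 0.09. At an unadjusted p under 0.05, 7 were higher, where 6.6% of all genes were, and 1 was lower, where 2.99% of all genes were. The smallest p belonged to Dbf4, the subunit that activates the Cdc7 kinase at origins, with 8.12 and 7.70 CPM in control and 14.9, 17.2, 11.2 and 12.5 CPM in Htr2b_cKO libraries. For Dbf4 each of the 4 Htr2b_cKO libraries exceeded both controls (log2 fold change 0.82, SE 0.22, adjusted p = 0.363), and the estimate was 0.35 after the GC and length correction. Orc4, of the origin recognition complex, had a log2 fold change of 0.53 (adjusted p = 0.409), which was -0.01 after that correction. Topbp1, an adaptor of helicase activation and checkpoint signalling, had one of 0.52 (adjusted p = 0.411), which was 0.33 after it. After the correction 25 estimates were above 0 with a median of 0.02. At an unadjusted p under 0.05, 0 of these genes were then higher and 2 lower, against 405 and 499 of all 15840 genes.

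Among 30 other genes of S-phase nucleotide metabolism, chromatin and repair, 21 estimates were above 0, the median was 0.19, and 0 passed the test. At an unadjusted p under 0.05, 6 were higher and 0 lower, where 6.6% and 2.99% of all genes were. After the GC and length correction 18 were above 0 and the median was 0.05. At that p 2 were then higher and 1 lower, against 405 and 499 of all 15840 genes. Brca2, of homologous recombination, had 2.19 and 3.65 CPM in control and 7.02, 6.75, 5.31 and 8.35 CPM in Htr2b_cKO libraries. Its groups did not overlap, and its log2 fold change was 1.26 (SE 0.32, adjusted p = 0.346), or 0.88 after the GC and length correction. Hells, a chromatin remodeller, and Usp1, a deubiquitinase of PCNA, had log2 fold changes of 0.82 and 0.50 (adjusted p = 0.409 and 0.427), and of 0.33 and 0.36 after the correction. Of 30 G1/S regulators 15 were above 0 with a median of -0.00, and 0 passed the test. At an unadjusted p under 0.05, 1 was higher and 0 lower. After the GC and length correction 16 were above 0 with a median of 0.04, and 0 were higher and 0 lower at that p. Before the correction Rb1, the retinoblastoma gene, had a log2 fold change of 0.51 (adjusted p = 0.489). Ccna2, the cyclin of S phase, then had one of 0.40 (adjusted p = 0.532) and Myc one of 0.63 (adjusted p = 0.571).

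Histone genes that are expressed with replication had estimates mostly below 0 before the GC and length correction. Of 64 listed, 30 passed the filter, 8 estimates were above 0 and the median log2 fold change was -0.25, with 0 calls. At an unadjusted p under 0.05, 0 were higher and 4 lower, where 6.6% and 2.99% of all genes were. All 4 Htr2b_cKO libraries lay below both controls for 5, where 8.98% of all genes did. After the correction 13 were above 0, the median was -0.13, and 0 were higher and 1 lower at that p. Hist1h2ap had 150 and 106 CPM in control and 78.2, 95.01, 90.6 and 73.5 CPM in Htr2b_cKO libraries, all 4 below both controls (log2 fold change -0.60, SE 0.18, adjusted p = 0.391, and -0.30 after the correction). Hist1h3c and Hist1h2ai were at 1.28 CPM or less in every library. Histone genes are near-identical copies, so reads may be divided among them in ways the counts do not show.

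Mitotic genes had more estimates above 0 than the replication genes, and the difference between the lists was not tested. All 30 were tested, 21 estimates were above 0, 15 were higher and 0 lower at an unadjusted p under 0.05, and the median log2 fold change was 0.34. Over all genes 6.6% were higher at that p. The 15 came to 9, 8, 14 and 15 with Htr2b_cKO 1, 2, 3 or 4 left out. With either control left out a single control remained, so only estimates are given for those fits, and the 15 is not shown to hold there. Without control 1 the median log2 fold change of the mitotic genes was 0.42, with 30 estimates above 0. Without control 2 it was 0.28, with 18 above 0. Each of the 4 Htr2b_cKO libraries exceeded both controls for 13 of the 30 mitotic genes and for 2 of the 37 replication genes, against 10.6% of all genes. edgeR called 0 of the mitotic genes and DESeq2 called 3, Cenpf, Cenpe and Mki67. After the GC and length correction 4 mitotic genes were higher at an unadjusted p under 0.05, where 2.56% of all genes were, and the median was 0.19. By library, the median deviation of the mitotic genes was -0.16 and -0.31 in control and 0.18, 0.25, -0.05 and -0.05 in Htr2b_cKO libraries, so Htr2b_cKO 2 was high and control 2 low for both lists, while control 1 was high for the replication genes and low for the mitotic genes. After the GC and length correction control 1 was no longer low for the mitotic genes: their medians were 0.02 and -0.27 in control and 0.17, 0.23, -0.07 and -0.08 in Htr2b_cKO libraries.

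**Figure D5:**
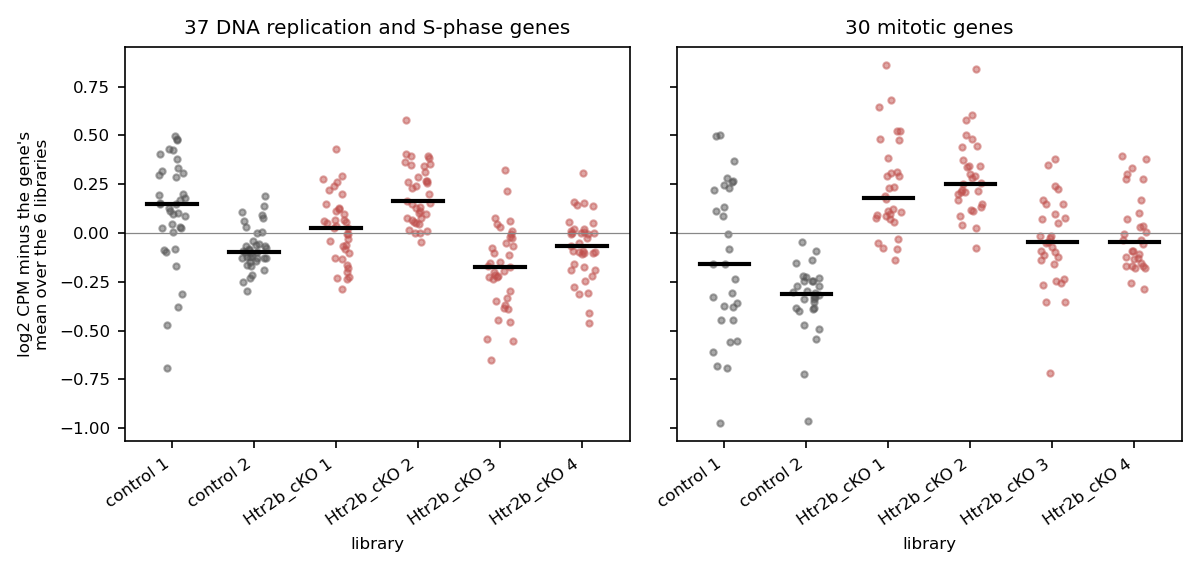
Log2 CPM minus the gene's mean over the 6 libraries, 1 point per gene, in each library, for the 37 replication genes (left) and 30 mitotic genes (right), with black bars at the medians. For the replication genes the medians of control 1 and 2 (0.15 and -0.10) lie on either side of 0, and for the mitotic genes both (-0.16 and -0.31) lie below those of the 4 Htr2b_cKO libraries, which after the GC and length correction holds for control 2 (-0.27) and not for control 1 (0.02).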

How the data were processed

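The authors' table of estimated counts gives whole numbers for each Ensembl gene, without normalization. Its column names, per the file headers, are those of a transcript quantifier. The authors' second table is a normalized signal: counts over a factor that varies by gene and library (SD of the log2 factor 0.128 to 0.193 per library). It served only as an alternative. The submitters' processing notes list DRAGEN, DESeq2 and mm10 with no version or role. How reads were assigned to genes, strand included, is not given in the sources used here, so overlapping and antisense genes cannot be separated. A GENCODE annotation of mm10 supplied symbols, lengths and GC content.

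The main test was edgeR 4.0.16 (R 4.3.3), quasi-likelihood, two-sided, TMM scaling, filterByExpr, robust, genotype the only term, Benjamini-Hochberg adjusted over all 15840 genes. Each library was taken as 1 animal. Floors of 3 counts are 0.078 to 0.108 CPM per library, for counting error only. GC and length offsets were smooth fits (loess span 0.3), in which 15 genes without a GC value took the median. DESeq2 1.42.0, limma 3.58.1 (voom, and a trend fit on log2 of the normalized signal plus 1), DESeq2 size factors, no filter, the offsets, a macrophage marker covariate and left-out libraries were alternatives. The main edgeR fit, voom and DESeq2 were tested on simulated counts, and the offsets, the covariate and the trend fit were not. The members and lists were chosen with earlier results of these data known. Values per library are given for the 2 genes with the smallest unadjusted p and the most abundant gene of each role, and Rfc3 was added because its groups did not overlap. The 3 genes with the smallest p in each other list are named, and values per library are given for the first of them in 3 lists.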

Additional observations from a re-analysis of the deposited data

Results flagged for a closer look

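Of 62 sets of 4 Htr2b_cKO values checked, 5 held a library set apart from the other three by more than Dixon's test allows at its 95% level. Chance alone gives about 1 such set in 20. Tk1 was at 20.5 CPM in Htr2b_cKO 4, below the other three at 24.6 to 25.4 CPM. Chaf1b was at 8.21 CPM in the library labelled Htr2b_cKO 3, below the other three at 11.2 to 11.8 CPM. The summed level of the clamp and clamp loader genes was 272 CPM in Htr2b_cKO 2 and 235 to 237 CPM in the others. Neutrophil markers summed to 81.0 CPM in Htr2b_cKO 4 and 27.6 to 35.2 CPM in the others, and lymphocyte markers to 16.5 CPM in the library labelled Htr2b_cKO 3 and 3.92 to 4.43 CPM in the others.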

How the results depend on the processing

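The count of replication genes called by the test was 0 under all 15 alternatives, which included edgeR's legacy dispersion, added after the data were seen, and the smallest adjusted p of any of them was 0.271, with the macrophage covariate. Of 555 single estimates 505 kept their sign and 50 did not, none of them past the threshold; 17 genes never changed sign. Over all genes, the number called was 105 by DESeq2, 5 without the filter, 7 with the macrophage covariate, 5 without Htr2b_cKO replicates 3 and 4 together, and 1 to 8 when 1 library was left out (3 in the main test). The median log2 fold change of the 37 genes was -0.12 to 0.077 when 1 library was left out and 0.065 without Htr2b_cKO replicates 3 and 4 together, and the number above 0 was 10 to 26 when 1 library was left out. The GC and length offsets gave Cdt1 0.076, Lig1 0.074, Mcm3 0.028, Rrm1 -0.32 and Uhrf1 0.038. The authors' normalized signal gave Cdc6 -0.040, Mcm3 0.041 and Rpa1 0.069, voom gave Cdc6 -0.027 and Chaf1a -0.030, and DESeq2 size factors gave Chaf1a -0.00043. Without Htr2b_cKO replicates 3 and 4 together the values were Cdc45 0.013, Gins1 0.10, Lig1 0.065, Mcm2 0.11, Mcm5 0.044, Rpa1 0.053 and Uhrf1 0.069. With 1 library left out in turn, 20 genes took both signs: Cdc45 from -0.28 to 0.26, Cdc6 -0.11 to 0.18, Cdt1 -0.22 to 0.042, Chaf1a -0.10 to 0.12, E2f1 -0.016 to 0.15, Fen1 -0.50 to 0.0088, Gins1 -0.12 to 0.068, Lig1 -0.18 to 0.14, Mcm2 -0.17 to 0.073, Mcm3 -0.21 to 0.077, Mcm5 -0.35 to 0.14, Mcm7 -0.34 to 0.077, Pcna -0.047 to 0.27, Prim1 -0.037 to 0.39, Rfc2 -0.12 to 0.021, Rfc5 -0.55 to 0.047, Rpa1 -0.15 to 0.11, Rrm1 -0.060 to 0.14, Tyms -0.33 to 0.017 and Uhrf1 -0.16 to 0.0084. Where a control was left out, the lone control was assumed to vary like the Htr2b_cKO libraries. Apart from the offsets, the causes of these changes were not tested.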

Other observations

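The ratio of the summed CPM of the 37 replication genes to that of the 30 mitotic genes was 1.33 and 1.34 in control libraries and 0.968, 1.06, 1.06 and 1.10 in Htr2b_cKO libraries, so the groups did not overlap. After the GC and length correction it was 1.27 and 1.32 in control and 0.996, 1.07, 1.07 and 1.14 in Htr2b_cKO libraries. The ratio was chosen after the values were seen and was not tested. Because both sums come from the same library, it does not depend on the scaling of library sizes.

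Ratios within each library were also computed for 5 pairs of genes whose products work together or in place of each other, chosen after their values were seen and not tested. The ratio of Ccne1 to Ccne2 was 3.48 and 2.13 in control and 1.85, 1.41, 0.822 and 1.10 in Htr2b_cKO libraries, without overlap. After the GC and length correction the groups overlapped, at 2.31 and 1.79 in control and 2.09, 1.56, 0.973 and 1.32 in Htr2b_cKO libraries. The ratio of Rpa1 to Rpa2 was 3.13 and 3.59 in control and 4.14, 4.26, 4.41 and 4.56 in Htr2b_cKO libraries. That separation was present after the correction too, at 3.45 and 3.67 in control and 3.87, 4.22, 4.50 and 4.30 in Htr2b_cKO libraries. The other three pairs did not stay apart. Rfc1 to Rfc5 was 1.37 and 2.71 in control and 2.84 to 3.38 in Htr2b_cKO libraries, and overlapped after the correction, when Htr2b_cKO 2 was at 2.74 and control 2 at 2.78. Rrm1 to Rrm2 was 4.33 and 5.22 in control and 5.31 to 5.93 in Htr2b_cKO libraries, and overlapped after it, at 5.34 and 5.45 against 4.70 to 5.84. Chaf1a to Chaf1b overlapped before it, at 1.99 and 2.02 in control and 1.94 to 2.70 in Htr2b_cKO libraries.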
